A study of Mus musculus with 6 samples.

Results

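Netrins are secreted guidance proteins, and DCC, neogenin, DSCAM and the UNC5 proteins are receptors through which neurons read them. The genes described here are 3 netrin ligands (Ntn1, Ntn3 and Ntn4) and 7 receptors: Dcc, Neo1, Dscam, Unc5a, Unc5b, Unc5c and Unc5d. The 10 genes were taken by name, and each had 1 probe set annotated to it alone, so 10 of the 22180 genes tested are members. The mean over the 6 arrays ran from the 54.0 percentile (Ntn3) to the 98.4 percentile (Unc5c) of all probe sets. No detection call came with the values.

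RNA of whole mouse cerebellum at postnatal day 7 was measured on 6 Affymetrix expression arrays. The knockout group (n = 3) carried Math1Cre and floxed alleles of Crebbp (Math1Cre::CrebbpFl/Fl). The wild-type group (n = 3) carried Math1Cre with wild-type Crebbp, so Cre was present in both groups. Math1 (Atoh1) is active in precursors of granule neurons, and whole cerebellum also holds cells outside that lineage, in which this Cre is not expected to act. CREBBP is a lysine acetyltransferase and transcriptional coactivator. Values are the deposited log2 expression values; a change is the knockout mean minus the wild-type mean with its standard error (SE). A gene rose or fell where its limma adjusted p, over all genes tested, was under 0.05. A probe set's level is comparable between arrays but not with another gene's level.

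Netrin-1 attracts growing axons that carry DCC and repels those in which UNC5 receptors act, with or without DCC. Neogenin, a relative of DCC, also binds repulsive guidance molecules, and DSCAM is an immunoglobulin superfamily adhesion protein that can bind netrin-1. In the cerebellum, granule neurons and the precerebellar neurons that project to it use this system during migration. Mice without Unc5c have granule cells that stray beyond the rostral border of the cerebellum.

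RefSeq promoter windows of build GRCm38.p6, which run from 250 bases before to 50 after a gene's start, were matched by symbol. Those of 7 of the 10 members were used. No window was used for Dcc, Ntn1 and Unc5d, which does not mean that RefSeq holds none for them. The base composition and motif counts below therefore leave out both members that rose, among them Dcc, the member with the lowest p in limma. They say nothing about the promoters of these genes. Windows are shown for members that passed, which leaves the 3 that fell, as none was used for Dcc and Ntn1. Every CG dinucleotide is in capitals.
Ntn4 (chr10:93640799-93641098, + strand): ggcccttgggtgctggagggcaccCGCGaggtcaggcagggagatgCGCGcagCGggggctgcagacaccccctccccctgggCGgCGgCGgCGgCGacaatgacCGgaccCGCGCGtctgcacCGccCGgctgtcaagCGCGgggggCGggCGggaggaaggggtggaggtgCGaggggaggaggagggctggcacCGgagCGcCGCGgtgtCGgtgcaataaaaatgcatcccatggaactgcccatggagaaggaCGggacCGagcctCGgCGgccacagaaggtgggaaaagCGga
Unc5b (chr10:60831532-60831831, - strand): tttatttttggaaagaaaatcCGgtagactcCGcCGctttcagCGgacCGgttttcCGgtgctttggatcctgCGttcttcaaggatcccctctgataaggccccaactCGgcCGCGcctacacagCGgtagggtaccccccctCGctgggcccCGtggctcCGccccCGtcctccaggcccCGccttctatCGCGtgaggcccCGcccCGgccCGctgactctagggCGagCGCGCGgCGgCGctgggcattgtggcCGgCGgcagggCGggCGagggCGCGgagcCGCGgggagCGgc
Neo1 (chr9:59036392-59036691, - strand): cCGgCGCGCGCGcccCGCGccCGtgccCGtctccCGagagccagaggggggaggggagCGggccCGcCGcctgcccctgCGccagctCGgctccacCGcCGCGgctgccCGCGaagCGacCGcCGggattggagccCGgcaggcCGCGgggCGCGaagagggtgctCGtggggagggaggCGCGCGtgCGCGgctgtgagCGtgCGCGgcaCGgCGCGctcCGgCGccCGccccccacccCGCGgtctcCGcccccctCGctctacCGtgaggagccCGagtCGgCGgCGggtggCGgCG
The window of Ntn4 was 72.0% G and C with 31 CG dinucleotides, that of Unc5b 69.7% with 36, and that of Neo1 82.7% with 54. The windows of Unc5a, Ntn3, Dscam and Unc5c, which did not pass, were 78.3%, 71.3%, 70.0% and 68.3% G and C. They held 37, 16, 26 and 24 CG dinucleotides. The median over all 32851 windows was 52.7% G and C.

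Windows were searched on both strands for the cyclic AMP response element TGACGTCA, for its shorter form TGACG, which lies within it, and for the E-box CAGCTG. TGACGTCA was in 0 of the 7 member windows and in 1.79% of all windows. CAGCTG was likewise in 0 of 7, against 16.3% of all windows. TGACG was in 1 of 7, against 20.8% of all windows, and that match was in the window of Unc5c, on the strand opposite to the gene. It lies in the following stretch, where capitals mark the match, which began 79 bases before the start.
Unc5c (chr3:141465473-141465502, + strand): gcagccgggagaCGTCAgtggctaggcgca
A match of letters is a description of the sequence and no evidence of binding.

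Of the 10 members, 2 rose in the knockout (Dcc and Ntn1), 3 fell (Ntn4, Unc5b and Neo1) and 5 did not pass. Over all genes tested, 2.72% rose and 3.94% fell, 6.67% in all. Before adjustment, 4533 of the 22180 genes had a limma p under 0.05, the background for the unadjusted counts given below. On 8 members the knockout values did not overlap the wild-type values, with 2 higher and 6 lower in knockout. Over all genes, the groups lay apart for 25%, with 11.8% higher and 13.1% lower. The median change of the members was -0.16, against -0.0028 over all genes tested. Dcc, Ntn4 and Unc5b passed whichever array was left out. Ntn1 and Neo1 changed less and lost their calls without certain arrays, given with each gene below. Whether each array had an animal of its own is not in the labels, so the p-values reflect the spread among these samples, which may be partly technical.

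**Figure D1:**
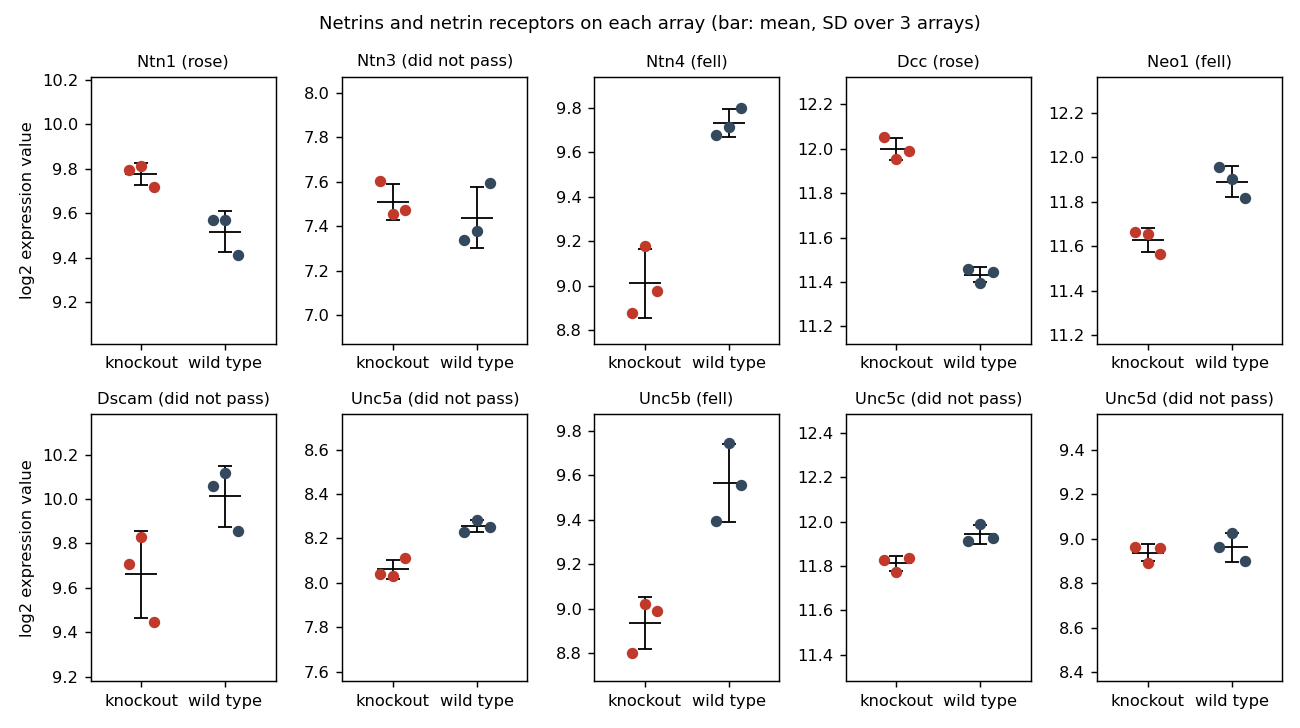
Log2 expression value of each of the 10 genes on the 3 knockout arrays (red, left) and 3 wild-type arrays (dark, right), with the mean and SD over 3 arrays per group; each panel spans the same height in log2 units. Knockout points of Dcc and Ntn1 lie above all wild-type points. Those of Ntn4, Unc5b and Neo1 lie below them, as do those of Dscam, Unc5a and Unc5c, which did not pass. The groups overlap for Ntn3 and Unc5d.

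Crebbp itself, as a check of the labels, read 11.46, 11.42 and 11.32 on the knockout arrays and 11.96, 11.99 and 11.90 on the wild-type arrays, a change of -0.56 (SE 0.05, limma adjusted p = 0.000354). Array medians lay between 7.25 and 7.29. The choroid plexus list was uneven between arrays. Its gene Ttr (transthyretin) read 13.77, 9.19 and 13.92 on knockout arrays and 12.30, 8.08 and 8.91 on wild-type arrays, so 2 knockout arrays and 1 wild-type array lay above 10. The call of each member that passed is also given with these 3 arrays left out, a fit that keeps 1 knockout array, whose spread is assumed to be that of the wild-type arrays. In that fit 1 member rose (Dcc) and 2 fell (Ntn4 and Unc5b), while 0.505% of all genes rose and 0.559% fell.

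Among the ligands, Ntn4 fell, Ntn1 rose and Ntn3 did not pass. Ntn4 encodes netrin-4, which binds laminins and is found in basement membranes, those of blood vessels among them. It read 8.88, 9.18 and 8.97 on the knockout arrays, against 9.68, 9.71 and 9.80 on the wild-type arrays. Every knockout value was lower than every wild-type value, with a gap of 0.5001 log2 units between the groups. The means were 9.01 ± 0.16 in knockout and 9.73 ± 0.06 in wild type (SD, n = 3 each), a change of -0.72 (SE 0.08, limma adjusted p = 0.000838). This was the largest change of the 10 members, at 0.606 times the wild-type level, with a 95% confidence interval of 0.538 to 0.683. It was -0.58 (adjusted p = 0.0203) without the 3 arrays with high Ttr.

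Ntn1 encodes netrin-1, the ligand that gave the family its role in axon guidance. It read 9.80, 9.81 and 9.72 on the knockout arrays, against 9.57, 9.57 and 9.41 on the wild-type arrays. The groups did not overlap, and the gap between them was 0.15. The change was 0.26 (SE 0.06, limma adjusted p = 0.0312), a level 1.20 times that of wild type (95% confidence interval 1.09 to 1.31). With 1 array left out the change stayed between 0.21 and 0.29, but Ntn1 no longer passed when any of the wild-type replicates was dropped (adjusted p = 0.0746, 0.0555 and 0.0811 for 1, 2 and 3) or when knockout replicate 1 or 2 was (0.0949 and 0.0798). Without the arrays with high Ttr the change was 0.32 (adjusted p = 0.224), and after centring each array on its median it was 0.24 (adjusted p = 0.0544).

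Ntn3 encodes a netrin closely related to netrin-1. It read 7.60, 7.45 and 7.47 on knockout arrays and 7.34, 7.38 and 7.60 on wild-type arrays. The groups overlapped, and the 95% confidence interval of the change, -0.12 to 0.27, includes 0 (adjusted p = 0.728).

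Dcc rose, and its relative Neo1 fell. DCC is the receptor through which netrin-1 attracts axons. Dcc read 12.05, 11.96 and 11.99 on the knockout arrays, against 11.46, 11.39 and 11.44 on the wild-type arrays. All knockout values lay at least 0.497 log2 units above the wild-type values. The change was 0.57 (SE 0.04, limma adjusted p = 0.000189), a level 1.48 times that of wild type (95% confidence interval 1.38 to 1.59), and Dcc ranked 18 of 22180 genes by p. With 1 array left out the change lay between 0.54 and 0.59, and it was 0.54 (adjusted p = 0.0262) without the arrays with high Ttr.

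Neo1, the gene of neogenin, read 11.67, 11.66 and 11.57 on the knockout arrays, against 11.96, 11.90 and 11.82 on the wild-type arrays. The groups did not overlap, and the gap was 0.15. The change was -0.26 (SE 0.05, limma adjusted p = 0.0145), a level 0.834 times that of wild type (95% confidence interval 0.772 to 0.901). Dropping wild-type replicate 1 (-0.23, adjusted p = 0.0839) or 2 (-0.26, adjusted p = 0.0513) ended the call. Without the arrays with high Ttr the change was -0.20 (adjusted p = 0.478).

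Dscam read 9.71, 9.83 and 9.44 on knockout arrays and 10.06, 10.12 and 9.86 on wild-type arrays. The groups lay just apart, by 0.027, and knockout replicate 3 was the lowest array. The change of -0.35 (SE 0.10) did not pass with all 6 arrays (limma adjusted p = 0.0643; 95% confidence interval -0.57 to -0.13). It passed when wild-type replicate 3 was dropped (adjusted p = 0.0459), and likewise for knockout replicate 2 (0.0306). The change was -0.16 (adjusted p = 0.708) without the arrays with high Ttr and -0.21 (adjusted p = 0.348) with the mean of the choroid plexus list as a covariate.

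All 4 UNC5 receptor genes read lower on average in knockout, and Unc5b passed. UNC5 proteins carry a death domain, and UNC5B is best known as a netrin receptor of sprouting vessels. Unc5b read 8.80, 9.02 and 8.99 on the knockout arrays, against 9.39, 9.75 and 9.56 on the wild-type arrays. Every knockout value was at least 0.375 below every wild-type value. The means were 8.94 ± 0.12 in knockout and 9.56 ± 0.18 in wild type (SD, n = 3 each), a change of -0.63 (SE 0.09, limma adjusted p = 0.00385). This was 0.647 times the wild-type level (95% confidence interval 0.562 to 0.744). The change ran from -0.71 to -0.54 with 1 array left out and was -0.63 (adjusted p = 0.0227) without the arrays with high Ttr.

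Unc5c, the receptor gene whose loss misplaces granule cells, read 11.83, 11.78 and 11.84 on knockout arrays and 11.91, 11.99 and 11.93 on wild-type arrays. The groups did not overlap, but the gap was only 0.075 and the change of -0.13 (SE 0.04) did not pass (limma adjusted p = 0.109; 95% confidence interval -0.23 to -0.03). Unc5a, a receptor mainly of neurons, read 8.04, 8.03 and 8.11 on knockout arrays and 8.23, 8.28 and 8.25 on wild-type arrays. Its groups lay 0.12 apart, and the change of -0.19 (SE 0.06) did not pass either (adjusted p = 0.0935; 95% confidence interval -0.33 to -0.06).

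Unc5d encodes a receptor that also binds FLRT2 and guides migrating cortical neurons. It read 8.96, 8.89 and 8.96 on knockout arrays and 8.96, 9.03 and 8.90 on wild-type arrays. The groups overlapped, and the 95% confidence interval of the change ran from -0.15 to 0.10 (adjusted p = 0.873).

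**Figure D2:**
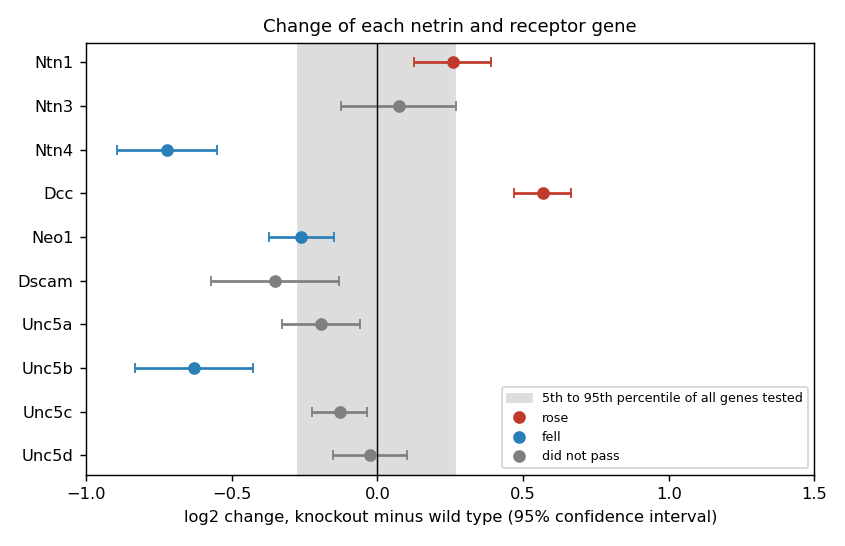
Log2 change of each gene (knockout minus wild type) with its 95% confidence interval, red where it rose, blue where it fell and grey where it did not pass; the grey band spans the 5th to 95th percentile of all genes tested (-0.27 to 0.27). Dcc (0.57) lies to the right of the band, Ntn4 (-0.72) and Unc5b (-0.63) lie to its left with their whole intervals, and Ntn1 (0.26) and Neo1 (-0.26) lie within it. Dscam (-0.35), which did not pass, also lies to its left, with an interval that reaches into the band.

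Differences between members within an array do not depend on how whole arrays are scaled. These pairs were chosen with the changes known and are described without a test. Dcc minus Neo1 was 0.39, 0.30 and 0.42 on knockout arrays and -0.50, -0.51 and -0.37 on wild-type arrays. The knockout differences were all above 0 and the wild-type differences all below it, a shift of 0.83. Dcc minus Unc5b was 3.25, 2.94 and 3.002 on knockout arrays and 2.07, 1.65 and 1.89 on wild-type arrays, a shift of 1.20. Dcc minus Unc5c was 0.23, 0.18 and 0.15 on knockout arrays and -0.45, -0.60 and -0.48 on wild-type arrays, a shift of 0.70. Between the ligands, Ntn1 minus Ntn4 was 0.92, 0.63 and 0.74 on knockout arrays and -0.11, -0.14 and -0.39 on wild-type arrays, a shift of 0.98. In all 4 pairs the groups lay apart, which the choice of pairs made certain. Each joins a gene with all knockout values higher to a gene with all knockout values lower. The value on an array compares 2 probe sets and is no ratio of transcript numbers, whereas the shift between groups is a difference of changes.

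**Figure D3:**
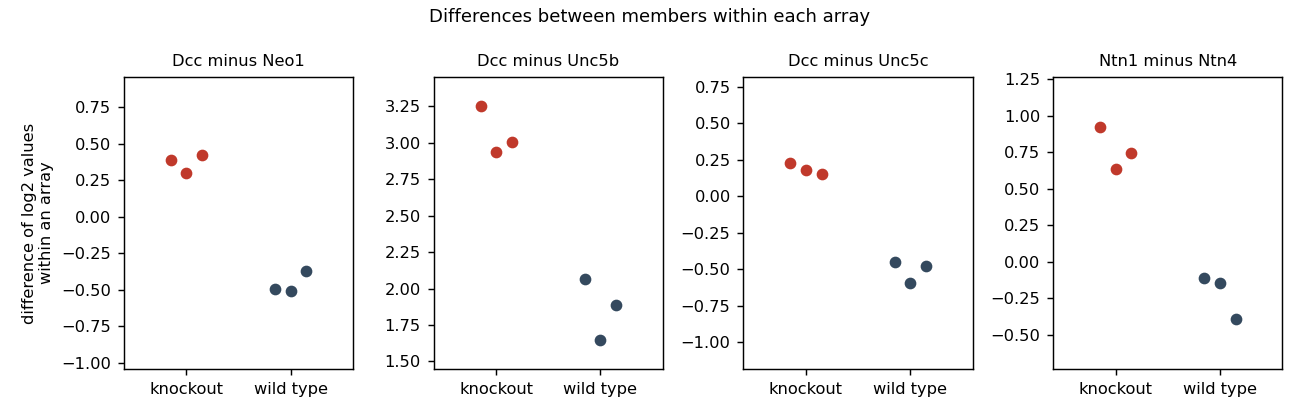
Difference of the log2 values of a pair of members within each array, for the 3 knockout arrays (red, left) and 3 wild-type arrays (dark, right), with every panel spanning the same height. Knockout points lie above wild-type points in each panel, by shifts of the mean of 0.83, 1.20, 0.70 and 0.98.

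Beyond the members, 15 of 18 listed genes of other netrins, co-ligands and co-receptors were measured. Of these, 3 fell, 0 rose and 12 did not pass in limma (7 had an unadjusted p under 0.05, 0 of them upward), with a median change of -0.14. Flrt3, whose protein binds UNC5B, fell to 8.13 in knockout, against 8.60 in wild type (change -0.47, SE 0.08, adjusted p = 0.0107). Lrrc4c, the synaptic ligand of netrin-G1, fell by 0.33 (SE 0.06, adjusted p = 0.0113), and Ntng1 itself changed by -0.37 without passing (SE 0.16, adjusted p = 0.221). Adgrl3, a latrophilin that binds FLRT proteins, fell by 0.33 (SE 0.06, adjusted p = 0.0113), and another, dimmer probe set of it changed by -0.30 without passing when every probe set was tested (adjusted p = 0.442). Robo1 changed by -0.21 (adjusted p = 0.0922). None of the 3 falls passed with the mean of the choroid plexus list as a covariate or without the arrays with high Ttr.

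Of 31 listed proteins that act inside the cell downstream of netrin receptors, 26 had a measured gene. Of these 7 fell, 1 rose and 18 did not pass, with a median change of -0.08. In limma 12 had an unadjusted p under 0.05, 1 of them upward. Ablim3 and Ablim1 encode actin-binding LIM proteins, whose worm relative acts in netrin-guided axons. Ablim3 fell by 0.62 (SE 0.09, limma adjusted p = 0.00459) and Ablim1 by 0.49 (SE 0.07, adjusted p = 0.00247). Trim67, a ubiquitin ligase that binds DCC, fell by 0.40 (SE 0.06), while its relative Trim9 changed by -0.31 without passing (adjusted p = 0.0556).

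Bcar1, a scaffold of SRC family kinase signalling, fell by 0.36 (SE 0.05), and Myo10, a myosin that carries DCC into filopodia, by 0.32 (SE 0.05). Elmo1, a partner of DOCK1 in the activation of RAC1, fell by 0.25 and Evl, an actin regulator of the ENA/VASP family, by 0.21. The gene that rose was Dapk1, a death-associated kinase linked to UNC5B, at 10.61 in knockout and 10.31 in wild type (change 0.30, SE 0.07, adjusted p = 0.0280). Dapk1 did not pass when wild-type replicate 2, wild-type replicate 3 or knockout replicate 1 was dropped. Without the arrays with high Ttr, 0 effectors fell and 0 rose. The widely expressed GTPase genes Rac1 and Cdc42 changed by -0.03 and 0.04 (adjusted p = 0.778 and 0.724).

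Set beside other guidance systems, the counts were as follows. Of 7 Slit and Robo genes, 0 passed in limma (2 had an unadjusted p under 0.05), with a median change of -0.0036. Of 13 class 3 semaphorin, neuropilin and A plexin genes, 2 fell and 0 rose, with a median of -0.12. Among the 13, 7 had an unadjusted p under 0.05, 2 of them upward. The genes that fell were Sema3d (change -0.90, SE 0.11, adjusted p = 0.00141) and Plxna2 (-0.63, SE 0.06, adjusted p = 0.000354). Of 21 measured Eph receptors and ephrins, 2 rose and 2 fell, with a median of -0.03. Among the 21, 7 had an unadjusted p under 0.05, 3 of them upward. Epha3 (change -1.13, SE 0.07, adjusted p = 6.79e-05) and Ephb1 (-0.42, SE 0.07, adjusted p = 0.00944) fell. Epha6 (0.34, SE 0.06, adjusted p = 0.00717) and Ephb4 (0.29, SE 0.06, adjusted p = 0.0214) rose. Epha3 and Sema3d changed more than any member. Without the arrays with high Ttr, 0 Slit and Robo genes passed, 2 genes of the semaphorin list fell, and 1 Eph or ephrin gene fell and 0 rose. Robo1 is counted both among these Robos and among the co-receptors above. Whether the lists differ from the netrin genes was not tested.

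**Figure D4:**
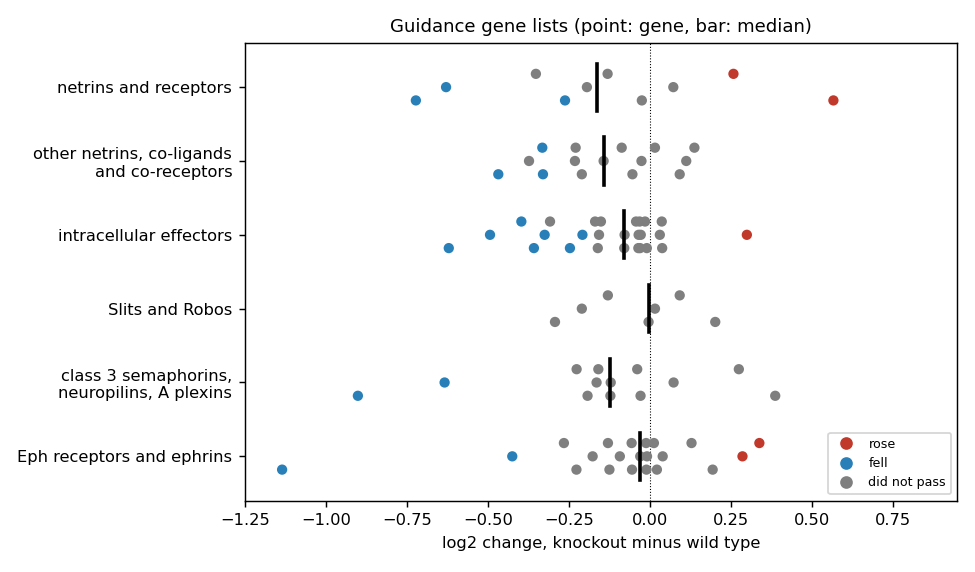
Log2 change (knockout minus wild type) of each gene in the netrin and receptor set, its associated lists and 3 other guidance lists; points are genes, coloured red where they rose, blue where they fell and grey where they did not pass, and black bars are medians. Dcc, at 0.57, is the rightmost point of the plot, and the medians lie between -0.16 and -0.0036.

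Markers of 11 cell types were read on every array. Over all genes, 4533 of 22180 had an unadjusted p under 0.05. Of 9 granule neuron markers, 7 fell and 0 rose (0 had an unadjusted p under 0.05 upward; limma), with a median of -0.52, and the list's mean, relative to wild type, was -0.66, -0.50 and -0.50 on knockout arrays and -0.04, 0.11 and -0.07 on wild-type arrays, with no overlap. Of 9 precursor markers, 2 rose (Atoh1 by 0.52 and Ccnd1 by 0.24) and 2 fell (Ccnd2 by 0.33 and Zic1 by 0.24). Their median change was 0.09, and 5 had an unadjusted p under 0.05, 3 of them upward. Without the arrays with high Ttr, 3 granule neuron markers fell (median -0.43), and 0 precursor markers passed. In whole tissue, fewer cells of a type and less RNA per cell cannot be told apart. Of 8 Bergmann glia and astrocyte markers, 2 rose (Gfap by 0.45 and Gdf10 by 0.198), 0 fell and 6 did not pass (3 had an unadjusted p under 0.05, all upward), with a median change of 0.05. Of 7 Purkinje cell markers, 1 rose and 1 fell (3 had an unadjusted p under 0.05, 2 of them upward), with a median of 0.05. Of 7 inhibitory interneuron markers 0 passed in limma (2 had an unadjusted p under 0.05, both upward), with a median of 0.12, and 2 rose without the arrays with high Ttr. Of 7 microglia markers 0 passed (0 had an unadjusted p under 0.05), with a median of 0.04. The part of any of these cell types in the changes of Dcc, Ntn1, Ntn4, Unc5b and Neo1 was not tested.

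Ntn4 and Unc5b are also genes of vessels. Of 10 endothelial markers 0 passed in limma (1 had an unadjusted p under 0.05), with a median change of -0.0066. The log2 of the list's summed level was 12.35 to 12.37 in knockout and 12.34 to 12.4 in wild type. Of 7 pericyte and smooth muscle markers 0 passed (0 had an unadjusted p under 0.05), with a median change of -0.0020. Single endothelial markers changed by -0.39 to 0.19, and 1 of the 10 fell without the arrays with high Ttr. The part of vessel cells in the values of Ntn4 and Unc5b was not tested.

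Oligodendrocyte lineage markers read lower in knockout: 1 of 8 fell (Mog) and 7 did not pass, while all 8 had an unadjusted p under 0.05 in limma and lower means in knockout, with a median change of -0.42. Without the arrays with high Ttr the median was -0.04 and 0 passed. That list's mean was -0.45, -0.09 and -0.75 on knockout replicates 1, 2 and 3, and its part in the members' values was not tested. Among the knockout arrays, Ntn4 and Unc5b were lowest on replicate 1, and Neo1 and Dscam on replicate 3. Of 7 meningeal fibroblast markers 0 passed in limma (4 had an unadjusted p under 0.05), with a median of 0.29 and the highest mean on knockout replicate 3 (0.48). Of 10 choroid plexus markers 0 passed in limma (6 had an unadjusted p under 0.05, all upward). All 10 had higher means in knockout, with a median change of 0.97. The log2 of their summed level was 10.91 to 14.33 in knockout and 10.78 to 12.71 in wild type. When the mean of that list entered the fit as a covariate, Dcc changed by 0.54, Ntn4 by -0.60 and Unc5b by -0.55, and all 3 passed (adjusted p = 0.00267, 0.00543 and 0.0356). Ntn1 and Neo1 changed by 0.28 and -0.24 in that fit and did not pass (adjusted p = 0.0870 and 0.0924).

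**Figure D5:**
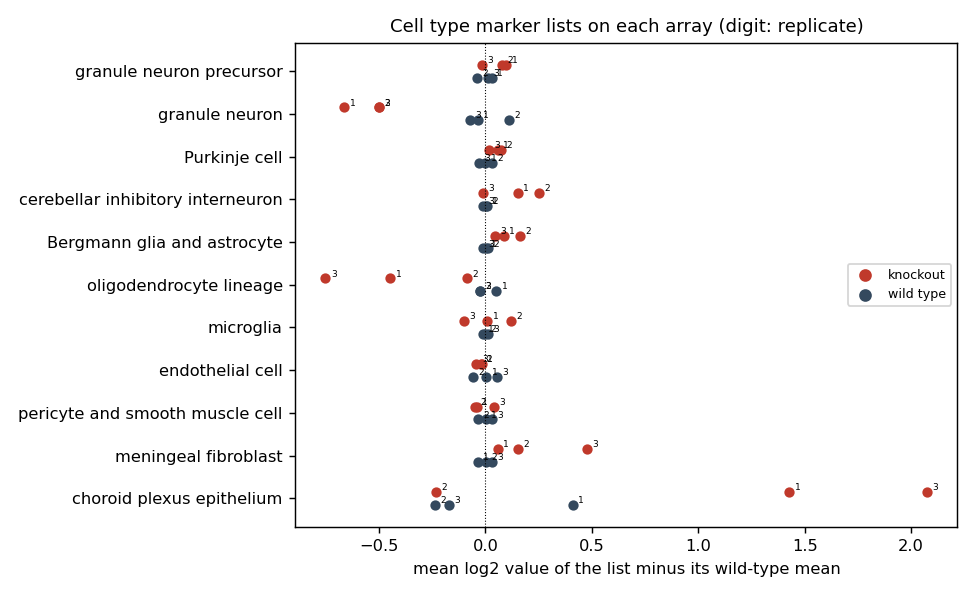
Mean log2 value of each cell type marker list minus its wild-type mean, for each knockout array (red, upper points) and wild-type array (dark, lower points), with the replicate number beside each point. Granule neuron lists lie between -0.66 and -0.50 on knockout arrays, endothelial and mural lists lie close to 0 in both groups, and choroid plexus points are high on knockout replicates 1 and 3 (1.43 and 2.08) and wild-type replicate 1 (0.41).

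For each member that passed, the nearest profiles were found by the root mean square difference over the 6 arrays of the log2 value minus the wild-type mean. Nearest to Dcc were Abca6 (difference 0.042, change 0.53), Rasd2 (0.062, change 0.503) and Plekho2 (0.068, change 0.63), all of which rose. Nearest to Ntn4 were Neurod4 (difference 0.057, change -0.71), Vipr1 (0.069, change -0.72) and Necab3 (0.073, change -0.76), all of which fell. Nearest to Unc5b were the teneurin gene Tenm1 (difference 0.072, change -0.68), Ralyl (0.074, change -0.604) and the potassium channel gene Kcnk1 (0.078, change -0.53), which also fell. For the smaller change of Ntn1 the nearest was Itch (difference 0.019, change 0.25), which rose. Lman2l (0.020, change 0.23) and Slc26a8 (0.021, change 0.24) followed and did not pass. For Neo1 they were Nhsl1 (0.019, change -0.28) and Ptms (0.022, change -0.25), which fell, and Rflnb (0.022, change -0.26), which did not pass. With 22180 genes and 6 arrays such likeness arises readily, and it is given as a description.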

How the data were processed

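Expression was measured in 6 samples of mouse cerebellum. The deposited values are log2 expression values per probe set; RMA and oligo are named for them, without versions, per the submitters' processing notes. Per the labels' protocols, Trizol was used for extraction and the GeneChip WT PLUS kit for labelling. Array build: not given in the sources used here, nor are filters. The log2 values were used as deposited.

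Of 41345 probe sets, 23521 had 1 gene symbol in GEO's platform annotation, 1814 several and 16010 none; only those with 1 were named. For each of 22180 genes the probe set with the highest mean was tested. Groups were taken from sample titles and compared in limma 3.58.1 (R 4.3.3; lmFit and eBayes, with a trend of the prior variance on mean brightness), two-sided, with Benjamini-Hochberg adjustment over all genes. The fit was tested on simulated data. The number of arrays, 3 per group, limits the precision.

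The members, the lists and the rules were chosen with earlier results of these data known. Named were all members, Crebbp, up to 4 genes of each other list and those that passed, defining markers and, for each member that passed, up to 3 nearest profiles, predicted and small RNA genes left out. Ntng1, Trim9, Rac1 and Cdc42 were named after their values were seen. Older symbols were updated through the mouse gene table (GRCm38.p6). Alternatives were other priors, scalings, weights, probe set rules, thresholds and filters, a replicate block, a choroid plexus covariate, and arrays left out. Promoter windows came from RefSeq (GRCm38.p6). Python 3.11.15, pandas 2.3.3 and matplotlib 3.10.9 were used.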

Additional observations from a re-analysis of the deposited data

How the results depend on the processing

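Across 17 alternatives per gene, Dcc, Ntn4 and Unc5b kept their direction and their call in every one (changes of 0.54 to 0.59, -0.81 to -0.58 and -0.71 to -0.54). Ntn1 kept its direction but lost its call in 10 and Neo1 in 6 of them; Dscam passed in 4. Ntn3 changed sign without the arrays with high Ttr (-0.032) and Unc5d without wild-type replicate 2 (0.0085; -0.057 to 0.0085 with 1 array left out), and neither passed in any fit. The causes of these shifts were not tested, beyond the fewer arrays or larger number of tests that some alternatives hold. The members that rose numbered 1 in place of 2 in the following fits, where the share of all genes that rose was under 2.72%. This share was 0.83% with a prior variance without a trend, 1.96% after median centring and 0.757% of probe sets with every probe set tested on its own. It was 0.667% at an adjusted p under 0.01 and 1.32% with the choroid plexus covariate. With 1 array left out, 1 to 2 members and 0.897% to 2.16% of all genes rose. The members that fell numbered 2 in place of 3 in the following fits, where the share of all genes that fell was under 3.94%. It was 1.4% without a trend, 1.11% of probe sets with every probe set tested, 1.55% at an adjusted p under 0.01 and 1.47% with the choroid plexus covariate. At an adjusted p under 0.10, 5 members and 5.82% of all genes fell. With 1 array left out, 2 to 4 members and 1.65% to 3.61% of all genes fell.

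The alternatives for the other lists were added after seeing the data. Shares called over all genes or probe sets in these fits are given above with the members. Without a trend, with every probe set tested, at an adjusted p under 0.01, with the choroid plexus covariate and without the arrays with high Ttr, 0 co-ligands and co-receptors fell in place of 3 and 0 effectors rose in place of 1. With 1 array left out, 2 to 3 co-ligands and co-receptors fell, 0 rose in each fit (0 to 0), 0 to 1 effectors rose and 5 to 8 fell. The effectors that fell numbered 4 in place of 7 without a trend and 0 without the arrays with high Ttr.

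With the replicate number as a block, 2 members rose and 4 fell, Dscam being added (adjusted p = 0.00479), so the block changed no other member's call. In that fit 3.26% of all genes rose and 4.86% fell. Deviations of same-numbered arrays from their group means correlated at 0.013, 0.030 and -0.13 across genes. No array correlated best with its own number. Whether same-numbered arrays share a litter or batch is not in the labels. So few arrays per group cannot settle it. The values came without a measure of signal over background, so no member has a detection call, Ntn3 being the dimmest of them.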
